A study of Homo sapiens with 15 samples.

Results

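Aldehyde dehydrogenases are enzymes that oxidise aldehydes to carboxylic acids. The 9 genes described here are ALDH1A1, ALDH1A3, ALDH1B1, ALDH2, ALDH3A1, ALDH3A2, ALDH3B1, ALDH3B2 and ALDH7A1, taken by symbol from a table of 60664 gene identifiers. ALDH1A1 was chosen by its measured difference between knockout and control cells, and the list around it was drawn up with results of these libraries in view. The values of the 9 genes in that comparison are therefore given as a description, with no test. Which values led to the other 8 genes is not recorded. All 9 genes passed the filter on low counts, which left 19516 genes. A further 10 genes of the same family served for comparison.

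The libraries came from KPL4, an established human breast cancer line that the labels call breast adenocarcinoma, with 5 groups of 3 libraries each. Control cells carried endogenous ERβ, the second estrogen receptor, encoded by ESR2. Knockout cells were labelled as lacking it. The add-back group consisted of knockout cells with transfected, exogenous ERβ. For the other two groups, add-back cells were grown for 72 h without phenol red in 1% charcoal-treated serum and then received the DMSO vehicle or 200 nM of the ERβ agonist LY500307 for 24 h. Vehicle and LY500307 cells therefore both lacked the endogenous receptor and carried the exogenous one. Whether the knockout line is a single clone, and whether replicates were separate cultures, is not given in the sources used here, so p-values measure only the spread between libraries. The titles of the first 3 groups name neither vehicle nor ligand, but the labels attach the same treatment text to every library, so the medium of those groups is not certain.

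The libraries held between 12614074 and 19390378 expected counts. ESR2 itself averaged 5.76 CPM (counts per 1000000 counts, scaled by TMM, the trimmed mean of M values) in control, 4.41 in knockout and 32.8 in add-back cells, and its difference of -0.38 (log2) between knockout and control did not pass the threshold (adjusted p = 0.0796). A knockout allele can still be transcribed, and reads of SYNE2, which overlaps ESR2 on the opposite strand, averaged 225 CPM, so this value does not check the knockout. ESR2 averaged 45.2 CPM with vehicle and 43.9 CPM with LY500307. Breast epithelial markers summed to between 7196 and 7451 CPM in control, 8749 and 9165 in knockout and 9540 and 9802 in add-back libraries. With vehicle the sum was 10040 to 10760 CPM and with LY500307 10570 to 11050. ERBB2 alone averaged 3520 to 6190 CPM over the groups, against 14.4 to 25.7 for CDH1 and 20.9 to 39.7 for GATA3. The sums thus weigh ERBB2 heavily, and by gene the list was split. Of 8 markers tested, 4 were higher and 4 lower in knockout against control cells, where 46% of all genes passed. With vehicle against add-back 2 were higher and 3 lower (median log2 difference -0.02), where 48.1% of all genes passed. The basal keratins KRT5 and KRT14 were at 0. In total RNA from many cells, fewer cells of a type and less RNA per cell cannot be told apart.

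ALDH1A1 and ALDH1A3 oxidise retinaldehyde to retinoic acid, the ligand of the retinoic acid receptors, and aldehyde dehydrogenase activity is widely used to mark stem-like cells in breast tumours. ALDH1B1 and ALDH2 are mitochondrial enzymes, ALDH2 being the main acetaldehyde dehydrogenase. Members of the ALDH3 class act on aromatic and fatty aldehydes, and ALDH7A1 takes part in lysine breakdown. ALDH1A1 (ENSG00000165092) lies on the minus strand of chromosome 9, from 72900662 to 73080442 in GRCh38. ALDH1A3 (ENSG00000184254) lies on the plus strand of chromosome 15, from 100877714 to 100916626. Most of the results turn on this pair, which differed in opposite directions between knockout and control cells and between add-back and knockout cells, so the 250 bases before their start sites are shown, from RefSeq on GRCh38.p14. The first window is chr9:72953054-72953303 on the minus strand and the second is chr15:100879581-100879830 on the plus strand. Capitals mark CCAAT boxes and, in the second, the core letters GCGTG of the xenobiotic response element, written CACGC where the match is on the other strand.
ALDH1A1: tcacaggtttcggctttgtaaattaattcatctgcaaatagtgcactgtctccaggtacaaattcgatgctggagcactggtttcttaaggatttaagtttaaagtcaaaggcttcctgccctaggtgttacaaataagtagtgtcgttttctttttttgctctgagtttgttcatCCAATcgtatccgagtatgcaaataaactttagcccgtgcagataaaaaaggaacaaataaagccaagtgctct
ALDH1A3: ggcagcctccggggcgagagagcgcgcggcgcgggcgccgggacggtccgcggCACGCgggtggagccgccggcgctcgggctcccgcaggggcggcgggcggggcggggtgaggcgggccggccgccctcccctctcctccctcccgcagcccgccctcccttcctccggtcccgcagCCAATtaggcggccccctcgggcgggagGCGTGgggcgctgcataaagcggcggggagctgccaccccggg

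The ALDH1A1 window holds 38.4% G and C, against 82.4% in that of ALDH1A3. Both hold a CCAAT box at a similar distance, starting 74 bases before the ALDH1A1 start and 71 before the ALDH1A3 start. GCGTG occurs in the ALDH1A3 window 43 bases before the start on the plus strand and 197 bases before it on the minus strand, and not in the ALDH1A1 window. Searched on both strands, CCAAT occurs in 32% and GCGTG in 32.2% of 35116 RefSeq promoter windows of this length. RefSeq windows were matched for 6 of the 9 genes, all but ALDH2, ALDH3A1 and ALDH3B2. CCAAT is not particular to the pair. It also occurs in windows of ALDH7A1, ALDH1B1 and ALDH3A2, starting 63, 26 and 30 bases before the start. GCGTG also occurs in a window of ALDH3A2, 76 bases before the start. None of the 6 genes' windows holds the estrogen response element (GGTCA, 3 bases of any kind, TGACC), its half-site AGGTCA, the AP-1 letters TGANTCA, the antioxidant response core TGACNNNGC or TATAAA. Those letters occur in 0.0399%, 12.1%, 6.57%, 10.9% and 10.7% of all windows, in that order. These matches describe letters in a short window and say nothing about binding.

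ALDH1A1 was high in control cells, lowest in knockout cells and in between wherever ERβ had been added back. In CPM, the 3 control libraries gave 1418, 1361 and 1290, and the 3 knockout libraries 157.8, 154.5 and 156.6. Add-back libraries gave 494.3, 496.0 and 475.7. The vehicle libraries held 664.7, 662.6 and 625.6, and the LY500307 libraries 589.1, 575.0 and 581.3. No library of one group overlapped any library of another, so the order from control through vehicle, LY500307 and add-back to knockout held for every library. The control mean was 8.67-fold above that of knockout cells (1356 ± 64.2 against 156 ± 1.68, SD, n = 3 each).

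ALDH1A3, the other retinaldehyde dehydrogenase on the list, showed the opposite pattern among the first 3 groups. Its control libraries held 5.00, 4.93 and 5.50 CPM, and its knockout libraries 18.95, 19.94 and 20.33. With ERβ added back the level was 6.66, 5.75 and 7.22 CPM. Add-back cells thus lay close to control cells and all 3 knockout libraries lay far above both. The vehicle libraries held 20.12, 19.38 and 22.55 CPM and the LY500307 libraries 20.09, 21.62 and 19.66, which overlap. Knockout cells were 3.83-fold above control cells (log2 difference 1.94). An antisense gene, ALDH1A3-AS1, overlaps this locus at up to 6.84 CPM, and whether counting used strand is not given in the sources used here, so the low ALDH1A3 levels in control and add-back cells are uncertain.

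**Figure D1:**
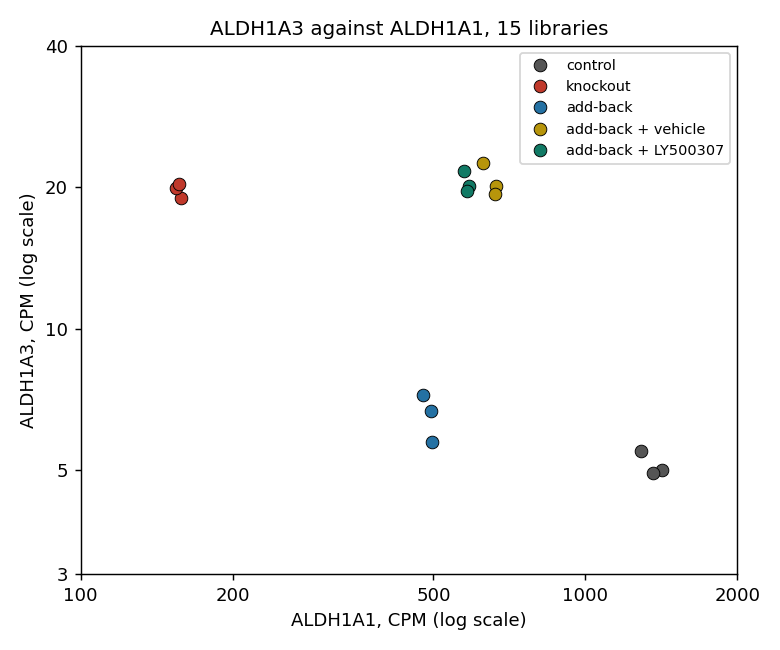
ALDH1A3 against ALDH1A1 in CPM, both on log scales, with each point 1 of 15 libraries coloured by group. Add-back libraries lie above knockout libraries in ALDH1A1 (475.7 to 496.0 against 154.5 to 157.8) and below them in ALDH1A3 (5.75 to 7.22 against 18.95 to 20.33), while vehicle and LY500307 libraries are high in ALDH1A3 at intermediate ALDH1A1.

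ALDH7A1 and ALDH3A1 were the other members with wide ranges. ALDH7A1 held 29.85, 33.36 and 32.73 CPM in control libraries and 73.74, 70.40 and 76.61 in knockout libraries, a 2.30-fold difference (log2 1.20). Its add-back libraries held 60.63, 63.64 and 64.59 CPM, near the knockout level. The control libraries were the lowest for this gene, and vehicle (104.1 to 105.8 CPM) and LY500307 libraries (95.98 to 102.0 CPM) the highest. ALDH3A1, a cytosolic enzyme of aromatic and lipid peroxidation aldehydes, held 19.92, 21.14 and 18.89 CPM in control libraries against 14.18, 14.31 and 13.72 in knockout libraries. The groups did not overlap, and the difference was -0.51 on the log2 scale.

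The remaining 5 members differed by at most 0.53 on the log2 scale between knockout and control cells. ALDH2 averaged 35.8 ± 1.47 CPM in control cells, against 51.8 ± 1.83 in the knockout (SD, n = 3), a log2 difference of 0.53. ALDH3B2, a close relative of ALDH3B1, averaged 18.6 ± 1.25 and 26.8 ± 0.946 CPM, also a difference of 0.53. ALDH3B1, which oxidises lipid-derived aldehydes, averaged 26.8 ± 2.17 and 21.7 ± 2.40 CPM, a difference of -0.30. With offsets that remove each library's trend on GC content and transcript length, these last differences were 0.21 for ALDH3B2 and -0.69 for ALDH3B1, while that of ALDH3A1 was -0.81 and that of ALDH3A2 went from -0.08 to -0.0089. The mitochondrial ALDH1B1 (71.6 and 65.8 CPM) was 1.09-fold lower in knockout cells, and the fatty aldehyde dehydrogenase ALDH3A2 (309 and 291 CPM) 1.06-fold lower. By value, 4 of the 9 members were higher and 5 lower in knockout cells. Over all genes tested, 46% passed the threshold of 0.05 for the adjusted p, 23.4% higher and 22.6% lower. Since the list was drawn up with this comparison known, nothing is read from the members' count.

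**Figure D2:**
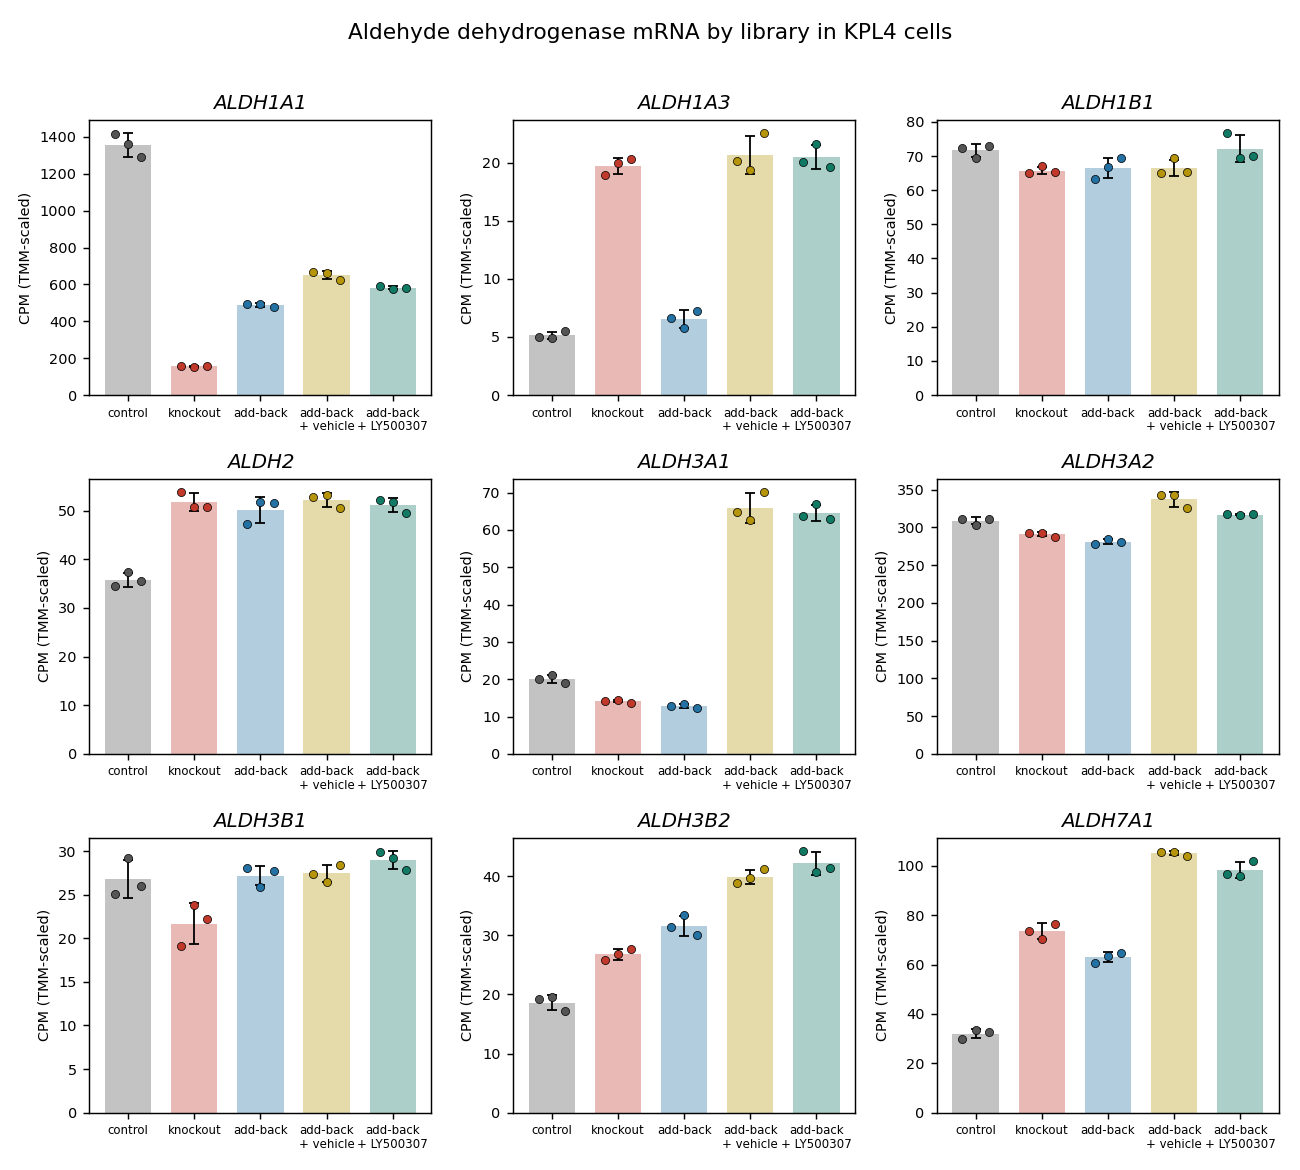
TMM-scaled CPM of the 9 genes, with a panel for each gene and its own axis from 0. Points are libraries, bars group means and whiskers ± SD (n = 3). ALDH1A1 is highest in control cells, ALDH1A3 is low in control and add-back cells, and ALDH3A1 is highest in the vehicle and LY500307 groups.

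When exogenous ERβ was expressed in knockout cells, ALDH1A1 rose and ALDH1A3 fell. ALDH1A1 was 3.13-fold higher in add-back than in knockout cells (log2 difference 1.64 ± 0.035, SE, adjusted p = 1.01e-16, edgeR quasi-likelihood test with Benjamini-Hochberg adjustment, used throughout). ALDH1A3 was 3.03-fold lower (log2 -1.60 ± 0.091, adjusted p = 2.3e-10). Of the 9 members 5 passed, 3 higher and 2 lower, where 19.6% of all genes did, 10.4% higher and 9.19% lower. The other 3 changed little. ALDH3B1 rose by 0.33 (adjusted p = 0.00376), ALDH3B2 rose by 0.24 (adjusted p = 0.00645) and ALDH7A1 fell by 0.23 (adjusted p = 0.00142). ALDH1B1, ALDH2, ALDH3A1 and ALDH3A2 did not pass, with differences between -0.13 and 0.02, but ALDH3A2 (-0.05) passed with upper-quartile factors (-0.08, adjusted p = 0.0486) and with the GC and length offsets (-0.08, adjusted p = 0.0233). The median of the 9 was -0.04, against -0.01 over all genes. These tests share the knockout libraries with the comparison of knockout and control cells, so a chance deviation in knockout libraries would enter both with opposite signs.

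Add-back did not return most members to the control level. ALDH1A1 remained 2.77-fold below control cells (log2 -1.47, adjusted p = 1.99e-16) and ALDH3A1 1.56-fold below (log2 -0.64, adjusted p = 4.1e-07). ALDH7A1 stayed 1.97-fold above control (adjusted p = 1.79e-11), ALDH3B2 1.70-fold (adjusted p = 9.27e-09) and ALDH2 1.40-fold (adjusted p = 2.8e-07). With the offsets the log2 difference of ALDH3B2 went from 0.77 to 0.46. ALDH3A2 was lower by a small margin (log2 -0.14, adjusted p = 0.00074). For ALDH1A3 the difference of 0.34 from control passed (adjusted p = 0.0217) but rested on single libraries, with an adjusted p of 0.0555 without control replicate 1, 0.0647 without control replicate 2 and 0.0997 without add-back replicate 3. The call was also lost in DESeq2 (0.0578) and in limma-voom (0.0507). In all, 7 of 9 members passed, 4 higher and 3 lower, where 45.8% of genes did, 23.2% higher and 22.7% lower. ALDH1B1 (log2 -0.11, adjusted p = 0.0722) and ALDH3B1 (0.02, adjusted p = 0.837) did not, and ALDH3B1 turned to -0.36 (adjusted p = 2.44e-05) with the GC and length offsets. These tests share the control libraries with the comparison of knockout and control cells, which was known when the list was drawn up. They are therefore not independent of the choice of members, and nothing is read from the count.

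**Figure D3:**
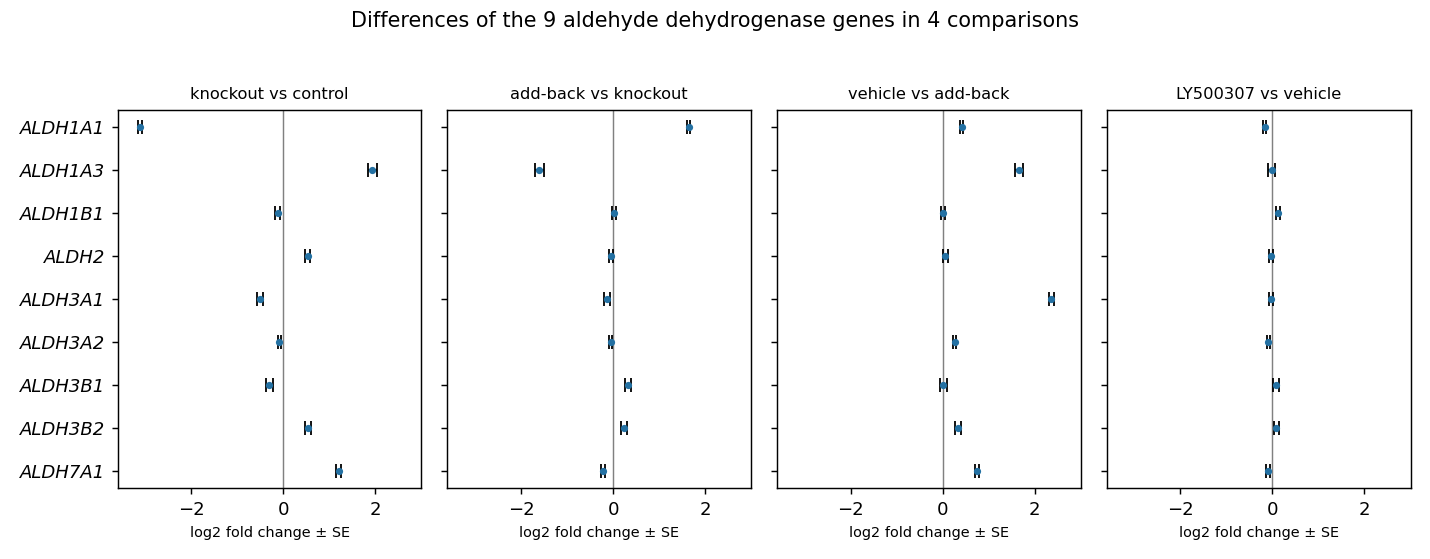
Log2 fold change of each of the 9 genes in 4 comparisons, with points for the edgeR estimate and whiskers for ± SE. ALDH1A1 and ALDH1A3 change sign between the first and second comparison (-3.12 and 1.64 for ALDH1A1), ALDH3A1 differs most in the third (2.36), and all values in the fourth lie near 0.

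Add-back cells in depleted medium with vehicle had more of several members than the add-back group whose titles name neither vehicle nor ligand, ALDH3A1 above all. ALDH3A1 went from 12.75, 13.31 and 12.33 CPM to 64.86, 62.52 and 70.17 CPM. That is a 5.13-fold rise (log2 2.36 ± 0.058, SE, adjusted p = 2.94e-16), and the groups were far apart. ALDH1A3 rose 3.16-fold (adjusted p = 1.62e-11), to a mean of 20.7 CPM against 19.7 in knockout cells, and ALDH7A1 1.67-fold (adjusted p = 8.41e-11). Smaller rises were seen in ALDH1A1 (1.33-fold, adjusted p = 6.46e-09), ALDH3B2 (1.26-fold, adjusted p = 4.99e-05) and ALDH3A2 (1.20-fold, adjusted p = 3.79e-07). With the offsets the log2 rise of ALDH3B2 went from 0.33 to 0.71. Thus 6 of 9 members were called higher, where 26.4% of all genes were. In either direction 48.1% of all genes passed, the remaining 21.6% being lower. The members' median difference was 0.33, against 0.01 over all genes. ALDH1B1, ALDH2 and ALDH3B1 did not pass (adjusted p = 0.968, 0.359 and 0.901), although ALDH3B1 passed with the offsets (0.44, adjusted p = 1.37e-06). ESR2 differed as well, with 30.6 to 34.1 CPM in add-back libraries and 41.7 to 48.0 CPM in vehicle libraries. Medium, serum, DMSO, ESR2 level and any difference in handling cannot be told apart in this comparison, and the medium of the add-back group is not certain. Markers of blood, endothelial and stromal cells summed to between 19.9 and 20.3 CPM in vehicle libraries against 8.43 to 9.23 in add-back libraries. Of 13 such markers 4 were tested, with 3 higher and 1 lower with vehicle and a median log2 difference of 1.72. Over the 5 groups, means ran from 0.163 to 6.32 CPM for CD68 and from 2.81 to 9.98 for VWF. They ran from 2.33 to 4 for COL1A1 and from 0.307 to 1.46 for CDH5. COL1A2 and PDGFRB were at 0 in vehicle and add-back cells. The part of these markers in the result was not tested.

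LY500307 changed little among the members. ALDH1A1 fell by 0.16 on the log2 scale relative to vehicle (adjusted p = 0.00727, 95% interval -0.23 to -0.09), with all 3 LY500307 libraries below all 3 vehicle libraries. This was the 1 of 9 members that passed, where 7.12% of all genes did, 4.77% higher and 2.35% lower. The call was lost when 1 of several libraries was left out, with an adjusted p of 0.0540 without vehicle replicate 1, 0.0591 without vehicle replicate 2 and 0.0507 without LY500307 replicate 2, and with the GC and length offsets (0.0519). ALDH1A3 did not pass (log2 -0.01, adjusted p = 0.961), with an interval of -0.17 to 0.14. For ALDH3A1 the difference was -0.03 (adjusted p = 0.800), with an interval of -0.13 to 0.07, but -0.20 with the offsets (adjusted p = 0.0074). ALDH3A2 (-0.09, adjusted p = 0.0666) passed in DESeq2 (0.0353) and in limma-voom (0.0362).

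Levels of different genes were compared per transcript length, in TPM (transcripts per 1000000 transcripts). In control cells ALDH1A1 stood at 1005 ± 23.4 TPM (SD, n = 3) and made up 76.8% of the summed TPM of the 9 genes. ALDH3A2 came next with 171 TPM, and ALDH1A3 was last with 2.24 TPM. In knockout cells ALDH1A1 held 122 TPM, 24.8% of the sum, and ranked below ALDH3A2 at 174 TPM. In add-back cells ALDH1A1 was again first, at 379 TPM and 51.3% of the sum, and it stayed first with vehicle (486 TPM, 48.9%) and LY500307 (434 TPM, 47.3%). Transcripts of known length held only 48.9% of ALDH3A2 counts and 72.1% of ALDH3B2 counts, against 100% for the other 7 genes. The TPM of these 2 genes are therefore too low, and ALDH3A2 could stand higher in the order. The shares of the sum given for ALDH1A1 are upper limits for the same reason. ALDH3A1 rose from the eighth place in add-back cells (12.7 TPM) to the fourth with vehicle (65.7 TPM). Within most groups neighbours in this order did not overlap between libraries. The exceptions were ALDH3A1 and ALDH3B2 in knockout cells and ALDH3B2 and ALDH3B1 in add-back cells. This does not settle the places of ALDH3A2 and ALDH3B2, whose TPM are too low in every library.

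One transcript, ALDH1A1-201, held between 98.3% and 98.8% of ALDH1A1 counts in each group on average, so the gene's differences were those of a single isoform. ALDH2 differed in make-up. Its transcript ALDH2-203, annotated as subject to nonsense-mediated decay, held 8.89% of ALDH2 counts in control cells (4.89% to 14.1% over libraries) and 24.2% in knockout cells (19.1% to 28.7%). The share after add-back was 20.3% (15.1% to 23.7%). It was 9.66% with vehicle and 17.5% with LY500307, and the libraries of those 2 groups did not overlap. For ALDH3A1 the coding transcript ALDH3A1-212 took 60.3% of counts in control and 27.9% in knockout cells, while ALDH3A1-201 took 4.25% and 39.5%. Both pairs of ranges were apart. These shares are estimates of RSEM from reads that fit several isoforms, and no test was made of them.

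Among the 10 other family genes, 9 passed the filter on low counts, all but ALDH1L1 (at most 0.283 CPM). In knockout against control cells 7 were higher and 1 lower, 88.9% of those tested against 46% of all genes. ALDH6A1 of valine breakdown went from 58.4 to 78.3 CPM (log2 0.42, adjusted p = 2.67e-07) and ALDH9A1 of carnitine synthesis from 55.9 to 66.2 CPM (log2 0.24, adjusted p = 0.00166). ALDH1L2, a mitochondrial folate enzyme, was 0.17 higher (adjusted p = 0.000867) and ALDH18A1 of proline synthesis was lower (log2 -0.15, adjusted p = 0.00425). ALDH5A1 of GABA breakdown was higher by 0.22 (adjusted p = 0.00732, 0.0633 without control replicate 2). The calls of ALDH4A1 (0.49) and ALDH16A1 (0.81) were lost with the GC and length offsets (adjusted p = 0.254 and 0.285). ALDH1A2, a further retinaldehyde dehydrogenase, averaged 1.61 CPM in control libraries against 2.37 in the knockout ones (log2 0.56, adjusted p = 0.0342). That call was lost without control replicate 1 (0.101) or 3 (0.114), without knockout replicate 2 (0.0866) or 3 (0.0757), and in DESeq2 (0.156). ALDH8A1 did not pass (adjusted p = 0.0506).

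In the other comparisons fewer of these relatives passed. The share was 22.2% in add-back against knockout, where 19.6% of all genes passed, and 55.6% in add-back against control, where 45.8% did. With vehicle it was 66.7%, against 48.1% of all genes, and with LY500307 22.2%, against 7.12%. Against knockout cells 2 rose with add-back, ALDH1L2 by 0.19 (adjusted p = 0.000699) and ALDH4A1 by 0.17 (adjusted p = 0.0419). The ALDH4A1 call was lost without knockout replicate 1 (0.111) or 3 (0.157) and without any single add-back library (0.0522 to 0.0919). ALDH6A1 did not pass (0.11, adjusted p = 0.0768) but was called higher under 10 of 24 alternatives. With vehicle 4 rose, ALDH9A1 by 0.57 (adjusted p = 5.79e-08), ALDH6A1 by 0.31 (adjusted p = 5.12e-06), ALDH1L2 by 0.23 (adjusted p = 2.53e-05) and ALDH18A1 by 0.22 (adjusted p = 6.62e-05). ALDH16A1 (-0.55) and ALDH4A1 (-0.14) fell, and both turned to a rise with the GC and length offsets (0.30 and 0.31). With LY500307 ALDH6A1 fell by 0.20 (adjusted p = 0.00738), a call lost without vehicle replicate 1 (0.0622) or 2 (0.0630). ALDH16A1 rose by 0.35 (adjusted p = 0.0349), lost without vehicle replicate 1 or 2 or any single LY500307 library (adjusted p = 0.0558 to 0.196), and at -0.01 with the offsets. ALDH16A1 overlaps PIH1D1 and ALDH1L2 overlaps NOPCHAP1 on the other strand, at 38.2 and 59.1 CPM.

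Genes that make, carry, break down or sense retinoic acid moved in both directions. Of 33 listed genes 27 were tested. In knockout against control cells 9 were higher and 8 lower, 63% of those tested against 46% of all genes. With add-back against knockout 8 rose and 1 fell, 33.3% against 19.6% of all genes. The median difference of the list was -0.10 in the first and 0.12 in the second, against -0.00 and -0.01 over all genes. FABP5, which carries retinoic acid to the nucleus, averaged 15.8 CPM in control, 3.59 in knockout and 8.10 in add-back cells (log2 -2.15, adjusted p = 2.43e-10, then 1.19, adjusted p = 1.13e-05). The retinoic acid hydroxylase CYP26A1 was near the detection limit at 1.44, 0.412 and 1.73 CPM (-1.80, adjusted p = 0.00276, then 2.04, adjusted p = 0.00202). CYP26B1 held 3.40, 2.07 and 3.83 CPM. RARB, a receptor that retinoic acid induces, fell from 23.3 to 8.50 CPM in knockout cells (-1.46, adjusted p = 3.09e-10) and stayed at 9.15 CPM with add-back (adjusted p = 0.523).

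The retinaldehyde-forming RDH10 was 0.18 higher in knockout cells (adjusted p = 0.00121) and did not pass with add-back (adjusted p = 0.283). The retinaldehyde reductase DHRS3 fell by 0.22 in knockout cells (adjusted p = 0.00216) and rose by 0.30 with add-back (adjusted p = 0.000341). CRABP2, another carrier, was 0.70 higher in knockout cells (adjusted p = 8.43e-09) and did not pass with add-back (adjusted p = 0.327). With vehicle 8 of the 27 rose and 9 fell, 63% against 48.1% of all genes. RARB rose from 9.15 to 33.3 CPM (1.86, adjusted p = 1.85e-12) and RDH10 from 164.6 to 461.8 CPM (1.49, adjusted p = 7.91e-16), while RARA fell by 1.20 (adjusted p = 7.88e-09, and -0.59 with the offsets). LY500307 left 21 of 27 below the threshold, with RDH10 lower by a log2 difference of -0.23 (adjusted p = 0.00227) and RARA higher by 0.60 (adjusted p = 0.00276, 0.33 with the offsets). RXRA turned direction with the offsets in knockout against control (0.21 to -0.35) and in vehicle against add-back (-0.51 to 0.18), and RARG in the latter (-0.35 to 0.05).

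**Figure D4:**
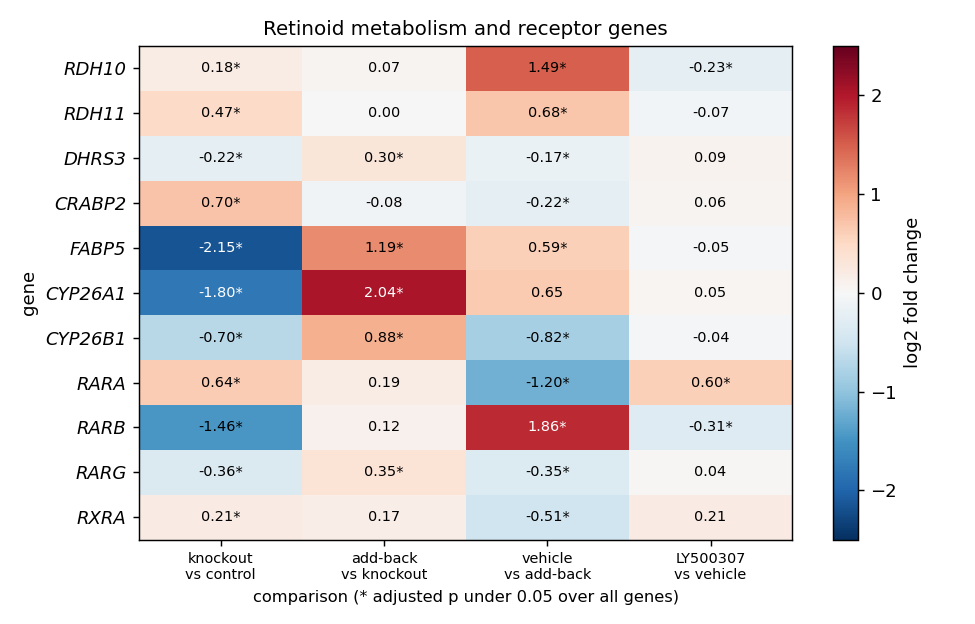
Log2 fold change of 11 genes of retinoid metabolism and signalling in 4 comparisons, with colour and printed value for the edgeR estimate and a star where the adjusted p over all genes tested is under 0.05. FABP5, CYP26A1 and RARB are lower in knockout cells, and the first 2 of these rise with add-back while RARB (0.12) does not pass. With GC and length offsets RXRA turns direction in knockout vs control and in vehicle vs add-back, and RARG in the latter.

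A separate list of 15 genes known to respond to retinoic acid, 12 of them tested and some shared with the list above, gave 4 higher and 5 lower in knockout cells and 6 higher and 1 lower with add-back. These are 75% and 58.3% of those tested, against 46% and 19.6% of all genes. TGM2, a transglutaminase, averaged 21.1, 14.9 and 32.7 CPM in control, knockout and add-back cells and 8.11 CPM with vehicle. RARRES1 was 0.55 higher in knockout cells (adjusted p = 7.62e-08) and 0.23 higher again with add-back (adjusted p = 0.00222). In knockout against control its direction was thus not that of RARB. With vehicle both rose, RARRES1 by 0.58 and RARB by 1.86. With LY500307 both fell, by -0.27 and -0.31, and the RARB call was lost under 5 of 24 alternatives.

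Targets of NRF2 and of the aryl hydrocarbon receptor, factors known to induce ALDH3A1 in some cells, were counted beside it. Of 20 tested, 11 rose and 5 fell with vehicle, where 26.4% of all genes rose and 21.6% fell. CYP1A1, the standard aryl hydrocarbon receptor target, went from 0.927 to 36.7 CPM (log2 5.29, adjusted p = 2.68e-14) and CYP1B1 from 250.6 to 590.1 CPM (1.24, adjusted p = 1.15e-13). GCLM of glutathione synthesis rose by 0.35 (adjusted p = 3.38e-06) and TXNRD1 by 0.20 (adjusted p = 6.1e-05), whereas NQO1 did not pass (-0.06, adjusted p = 0.121) but was called lower under 20 of 24 alternatives. ALDH3A1 and the CYP1 genes were thus high in the same vehicle libraries, but whether either factor acted on ALDH3A1 was not tested. In knockout against control cells 5 of the 20 were higher and 10 lower, 75% against 46% of all genes, with CYP1B1 higher (0.85, adjusted p = 6.74e-11) and CYP1A1 not past the threshold (adjusted p = 0.476). ALDH3A1 differed by -0.51 there.

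Other markers used for stem-like mammary cells did not share one direction. Of 15 listed, 12 were tested, with 4 higher and 6 lower in knockout cells, 83.3% against 46% of all genes. PROM1 (CD133) had means of 1.14, 5.37 and 2.84 CPM in control, knockout and add-back cells (2.23, adjusted p = 8.84e-10, then -0.91, adjusted p = 3.03e-05). SOX2 went the other way, with 6.42, 1.45 and 6.18 CPM (-2.14, adjusted p = 2.72e-10, then 2.09, adjusted p = 1.88e-09). CD44 and CD24 were both higher in knockout cells, by 0.67 (adjusted p = 0.000142) and 0.89 (adjusted p = 7.45e-11). ITGA6, an integrin subunit, was lower in knockout cells (log2 -0.17, adjusted p = 0.0119), a call lost without control replicate 1 (0.0899) or knockout replicate 1 (0.0656). With vehicle 8 rose and 2 fell, again 83.3%, against 48.1% of all genes, with SOX2 and PROM1 among those that rose (1.86 and 2.35).

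The genes whose log2 levels ran closest to ALDH1A1 over the 15 libraries were LAMC1 (Pearson r = 0.989), CYP4F3 (0.986), ENSG00000253154 (0.986), FYB1 (0.981) and GNAI1 (0.977). The laminin subunit gene LAMC1 averaged 293.7 CPM in control, 157.7 in knockout and 212 in add-back cells. Closest to ALDH3A1 were RBM3 (0.993), CEACAM6 (0.989), CXCL17 (0.988), HDAC9 (0.988) and SAMD9L (0.988). These correlations run over 5 groups of 3 libraries and mostly reflect group means, so they carry no p.

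Among the tested genes next to ALDH1A1 on chromosome 9, ANXA1, the annexin whose midpoint lies 170.5 kb away, moved in the same directions. It was lower in knockout cells (log2 -2.12, adjusted p = 7.91e-17), rose with add-back (0.96, adjusted p = 4.43e-11) and rose with vehicle (1.32, adjusted p = 2.54e-14). TRPM6, the next tested gene on that side at 1814.7 kb, gave -1.68, 0.77 and 0.64 (adjusted p = 4.9e-07, 0.0106 and 0.00391). C9orf40, 1959.2 kb away, was higher in knockout cells (0.19, adjusted p = 0.024) and did not pass with add-back or vehicle (adjusted p = 0.491 and 0.0891). The nearest tested genes on the other side, TMC1, ZFAND5 and LINC01504, did not pass in knockout against control cells (adjusted p = 1, 0.98 and 0.375). ZFAND5 fell by 0.19 with add-back (adjusted p = 0.00284) and rose by 0.17 with vehicle (adjusted p = 0.00206), and TMC1 and LINC01504 passed in neither. Beside ALDH1A3, the noncoding GCAWKR, whose midpoint lies 33.8 kb away, was higher in knockout cells (1.55, adjusted p = 1.5e-06) and lower with add-back (-0.86, adjusted p = 0.00119), like ALDH1A3. The antisense ALDH1A3-AS1 did not pass in knockout cells (0.14, adjusted p = 0.471) and fell by 0.52 with add-back (adjusted p = 0.0185). With vehicle GCAWKR rose by 0.62 (adjusted p = 0.00582) and ALDH1A3-AS1 by 0.52 (adjusted p = 0.00671). LRRK1 passed only with vehicle (0.36, adjusted p = 0.00286). ENSG00000279588, at 0.872 CPM, fell with add-back (-1.16, adjusted p = 0.022) and rose with vehicle (0.89, adjusted p = 0.0428). ENSG00000259381 and ENSG00000259755 passed in none of these comparisons.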

How the data were processed

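RNA of KPL4 cells was sequenced from 15 libraries made with a stranded, ribosomal RNA-depleted total RNA kit, per the labels' protocols. The authors deposited expected counts per gene and per transcript. FastQC, Trim Galore, GSNAP and RSEM and the build GRCh38 are named in the submitters' processing notes. The annotation release and the use of strand in counting are not given in the sources used here.

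Expected counts were rounded and tested with edgeR 4.0.16 in R 4.3.3. The steps were filterByExpr, TMM factors, a model with a mean for each of 5 groups over all 15 libraries, the quasi-likelihood F test and Benjamini-Hochberg adjustment over 19516 genes, with a threshold of 0.05. Library totals ran from 12614074 to 19390378, and the biological coefficient of variation was 4.99%. CPM are TMM-scaled. TPM were computed from the deposited transcript counts and GENCODE 29 lengths, which covered 94.7% to 95.2% of counts. Offsets for GC content and transcript length, DESeq2 1.42.0, limma 3.58.1 and other alternatives are in the closing section. Replicates differed by more than sampling noise. Whether replicate numbers pair the samples is not given in the sources used here, and the main model used no pairing. After removal of group means, 2 of 30 correlations between same-numbered libraries were over 0.1 (range -0.191 to 0.174). With 3 libraries a group, such correlations cannot settle whether samples were paired.

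The members, gene lists and tests were chosen with earlier results of these data known. Named genes were the 9 members, the other family genes, listed genes of each pathway, the 5 most correlated genes for ALDH1A1 and ALDH3A1, and the nearest tested genes. Neighbours of ALDH3A1 and ALDH3B1 were computed and are not described.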

Additional observations from a re-analysis of the deposited data

How the results depend on the processing

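Of 1080 values of the 9 members under 24 alternatives each, 1045 kept their side of the threshold and, where called, their direction, 26 lost and 8 gained the call, and 1 reversed. Of 1078 values of the other family genes, the count kept by the same rule was 1008, and of 2758 values of named pathway genes, 2669. The members' 1080 values include knockout against control, where nothing is read from their calls. Values past the threshold on neither side can change sign and are counted as kept. Changes of sign in a value called in either setting came only with the GC and length offsets and were RXRA in knockout against control (-0.35), ALDH3B1 (-0.36) and RXRA (-0.21) in add-back against control, ALDH4A1 (0.31), ALDH16A1 (0.30), RARG (0.05) and RXRA (0.18) in vehicle against add-back, and ALDH16A1 with LY500307 (-0.0135), and the cause was not tested.

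With LY500307, 1 member was called, against 2 in DESeq2, 2 in limma-voom and 0 to 1 leaving out 1 library. Over all genes 1389 were called, against 302 with the offsets and 299 to 1844 leaving out 1 library. Leaving out 1 library gave 5 members in add-back against knockout, 6 to 7 in add-back against control and 6 in vehicle against add-back. In knockout against control no count of members is given here, as their values in that comparison carry no test. Over the 24 alternatives the log2 difference there ran from -0.1828 to -0.1081 for ALDH1B1 and from -0.0978 to -0.0089 for ALDH3A2. Higher genes made up 50.8% of calls in knockout against control and 39.7% with the offsets, 50.5% and 37.2% in add-back against control, 55% and 69% in vehicle against add-back, and 67% and 37.7% with LY500307. In add-back against knockout the share was 53.1%, and 42% with upper-quartile factors. With the replicate number as a block, 8807, 3561, 8745, 9123 and 1216 genes were called, in the order knockout, add-back against knockout, add-back against control, vehicle and LY500307. Of the members, 5, 7, 6 and 1 were called in that order, with knockout against control left out. Low levels limit ALDH1A3 in control and add-back cells, and CYP26A1 and ALDH1A2 throughout.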
